A study of Rattus norvegicus with 16 samples.

Results

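The genes described here encode the machinery of the synaptic vesicle and of exocytosis: proteins of the vesicle membrane, synaptotagmins, SNARE proteins, priming and recycling factors, and proteins of the presynaptic active zone. They were chosen by name, as 42 gene symbols, and every probe set whose platform annotation gave a member symbol was taken. 40 of the 42 genes had a probe set (Stx2 and Pclo had none), with 59 probe sets in all among the 8740 probe sets on the array that are not controls. Where a gene had several, the probe set with the highest mean stands for it, and the others are given beside it. 35 genes passed the filter on low values, among 3675 genes that passed over the whole array; the other 5 (Rph3a, Syt2, Stx3, Unc13b and Bsn) lay at or near the lowest level.

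The samples are total RNA from the dentate gyrus of rats, the gateway through which cortical input enters the hippocampus, and were hybridised to 16 arrays of the Affymetrix RGU34A type, which read 1 sample each. In passive avoidance training, an animal learns not to make a move that has been punished. The naive and the 6 h group have 3 arrays each, and the groups labelled 0 h, 2 h, 3 h, 12 h and 24 h have 2 each. All labels, those of the naive group included, name rats trained in passive avoidance. Naive is taken here as untrained and the 6 timed groups are called trained, although the labels do not state from what the hours count. The labels give no strain, sex, age or training detail, and do not say whether an array holds 1 animal or a pool. They do not say that replicates are separate animals either, so p-values cover only sample-to-sample spread here, and that spread may be technical.

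A synaptic vesicle is filled with transmitter, docked at the active zone and primed. A SNARE protein on the vesicle (synaptobrevin, the VAMP family) zips together with SNARE proteins on the plasma membrane (syntaxin and SNAP-25). Calcium entering with the nerve impulse binds synaptotagmin, and the membranes fuse. Complexins hold the half-zipped complex ready, and the ATPase NSF with its adaptor alpha-SNAP takes the spent complexes apart so that the SNARE proteins can be used again. In the dentate gyrus, granule cells release glutamate from mossy fibre terminals in CA3, and the tissue also holds interneurons and glia.

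The promoters of 9 members are printed. They belong to the members lower at 6 h (Cplx1, Nsf, Rab3a, Syn1 and Syt1) or higher at 2 h (Cplx2, Napa and Syt4) at an unadjusted p under 0.05, and to Vamp1, which was lower at 3 h by the same measure. Snap25 was lower at 6 h too, and Nrxn3 at 3 h, but neither is printed. The windows were chosen after these values were seen. Each is the RefSeq sequence of build GRCr8 from 250 bases before to 50 after the annotated start, 5′ to 3′ on the gene's strand, with capitals marking the cyclic AMP response element TGACGTCA, or its half-site TGACG on either strand (CGTCA where it lies on the other strand). The windows are chr14:1328823-1329122 (plus strand) for Cplx1, chr10:89357334-89357633 (minus) for Nsf, chr16:18722224-18722523 (minus) for Rab3a, chrX:3725495-3725794 (plus) for Syn1, chr7:46244164-46244463 (minus) for Syt1, chr17:10236704-10237003 (minus) for Cplx2, chr1:85915185-85915484 (plus) for Napa, chr18:23320814-23321113 (minus) for Syt4 and chr4:159698644-159698943 (plus) for Vamp1.
Cplx1: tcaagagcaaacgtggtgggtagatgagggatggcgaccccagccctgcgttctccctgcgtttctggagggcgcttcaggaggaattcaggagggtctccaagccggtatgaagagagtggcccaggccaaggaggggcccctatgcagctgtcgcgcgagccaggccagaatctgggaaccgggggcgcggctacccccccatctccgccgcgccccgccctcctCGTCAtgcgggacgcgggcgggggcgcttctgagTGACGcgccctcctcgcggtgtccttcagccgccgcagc
Nsf: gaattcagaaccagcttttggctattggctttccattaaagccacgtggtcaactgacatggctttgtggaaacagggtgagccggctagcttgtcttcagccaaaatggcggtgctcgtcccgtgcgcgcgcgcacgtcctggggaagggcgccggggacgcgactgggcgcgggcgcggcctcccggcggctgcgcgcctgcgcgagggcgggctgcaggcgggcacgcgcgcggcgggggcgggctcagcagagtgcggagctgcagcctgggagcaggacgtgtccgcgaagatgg
Rab3a: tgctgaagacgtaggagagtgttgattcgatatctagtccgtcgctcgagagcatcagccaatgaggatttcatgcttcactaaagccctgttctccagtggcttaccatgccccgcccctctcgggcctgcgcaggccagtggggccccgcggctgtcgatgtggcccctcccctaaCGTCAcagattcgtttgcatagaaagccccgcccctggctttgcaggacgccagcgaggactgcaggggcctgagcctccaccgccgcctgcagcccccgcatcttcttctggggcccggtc
Syn1: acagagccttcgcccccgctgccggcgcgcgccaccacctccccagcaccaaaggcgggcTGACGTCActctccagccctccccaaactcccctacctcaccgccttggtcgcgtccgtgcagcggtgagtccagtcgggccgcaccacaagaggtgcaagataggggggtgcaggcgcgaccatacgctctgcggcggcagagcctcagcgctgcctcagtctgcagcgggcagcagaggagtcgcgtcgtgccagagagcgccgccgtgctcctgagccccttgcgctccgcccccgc
Syt1: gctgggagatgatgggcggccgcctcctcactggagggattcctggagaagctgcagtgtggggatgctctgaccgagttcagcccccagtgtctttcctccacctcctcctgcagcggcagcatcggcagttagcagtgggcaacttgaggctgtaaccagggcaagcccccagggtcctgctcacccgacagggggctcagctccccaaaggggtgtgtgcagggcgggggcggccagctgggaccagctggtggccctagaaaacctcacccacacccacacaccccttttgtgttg
Cplx2: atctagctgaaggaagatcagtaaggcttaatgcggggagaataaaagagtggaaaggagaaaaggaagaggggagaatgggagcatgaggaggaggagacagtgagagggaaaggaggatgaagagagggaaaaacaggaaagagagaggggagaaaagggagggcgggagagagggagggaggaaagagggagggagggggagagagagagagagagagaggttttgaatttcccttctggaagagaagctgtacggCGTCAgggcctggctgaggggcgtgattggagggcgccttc
Napa: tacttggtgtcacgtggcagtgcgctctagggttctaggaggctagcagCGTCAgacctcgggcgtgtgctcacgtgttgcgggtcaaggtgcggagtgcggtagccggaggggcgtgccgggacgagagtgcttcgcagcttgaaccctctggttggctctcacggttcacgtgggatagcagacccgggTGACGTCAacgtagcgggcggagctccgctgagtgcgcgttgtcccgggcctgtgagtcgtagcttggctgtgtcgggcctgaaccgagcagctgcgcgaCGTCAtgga
Syt4: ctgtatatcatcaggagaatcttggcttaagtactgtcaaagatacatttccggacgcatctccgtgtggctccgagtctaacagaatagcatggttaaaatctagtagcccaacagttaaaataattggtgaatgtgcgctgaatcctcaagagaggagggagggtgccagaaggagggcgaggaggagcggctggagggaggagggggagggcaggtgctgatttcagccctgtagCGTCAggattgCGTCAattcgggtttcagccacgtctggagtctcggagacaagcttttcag
Vamp1: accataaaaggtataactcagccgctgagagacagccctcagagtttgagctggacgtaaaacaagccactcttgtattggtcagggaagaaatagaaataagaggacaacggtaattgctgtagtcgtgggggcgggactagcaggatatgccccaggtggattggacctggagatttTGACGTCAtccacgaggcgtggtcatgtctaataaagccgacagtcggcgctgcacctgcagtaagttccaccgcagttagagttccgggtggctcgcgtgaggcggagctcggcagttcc

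RefSeq held 36 such windows for 35 member genes. TGACGTCA was found in 3 of them (8.33%: Napa, Vamp1 and Syn1), against 612 of all 33469 promoter windows (1.83%). Its first base lay 59 bases before the start in Napa, 71 in Vamp1 and 190 in Syn1. All 3 are among the windows printed above, so the share among the printed windows does not stand for the members. The half-site TGACG, which every full element also holds, was in 11 member windows (30.6%) and in 21.2% of all windows; the windows of Nsf and Syt1 hold neither form. The EGR element GCGTGGGCG was in 1 member window (Vamp2; 2.78%) and 0.544% of all. All motifs were searched on both strands. These are matches of letters in a 300-base window. They say nothing on whether a factor binds there, and no array value in the series bears on binding.

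Several measures of the arrays differed between groups. The deposited values were not on a common scale: the 2% trimmed mean of an array ran from 33.3 to 170, and it was set to 105.3 on every array before log2 was taken. The beta-actin 3′/5′ signal ratio, a quality control of the array that is higher when RNA or its copies are shorter, was 1.49 to 1.70 on the naive arrays, and 1.51 to 2.80 on the trained ones, with 12 of 13 trained arrays above every naive array. Ttr, a transcript of the choroid plexus, lay at 10.80 to 11.94 on the log2 scale in naive arrays, at 10.32 to 11.96 at 6 h, and at 6.19 and 6.20 at 24 h. The summed intensity of 9 oligodendrocyte markers was 4598 to 6247 in naive arrays and 2901 to 3117 at 24 h. The mean of each of the 9 lay below the naive mean at 3 h, 6 h and 24 h. The part of these markers in the values at those times was not tested. Of 15 dentate granule neuron markers 7 are on the array, and their summed scaled intensity was 927 to 1109 in naive arrays and 817 to 1174 on the trained ones. Calb1, Pdyn and Neurod1 averaged 8.44, 8.41 and 6.95 in naive arrays, while Tdo2 lay at the lowest level there. In a tissue extract, fewer cells of a type and less RNA per cell cannot be told apart.

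The scale of all values below is log2 of the scaled intensity, and a difference is a group's mean minus the naive mean unless said otherwise. Tests are limma's moderated tests over all 7 groups, with p-values adjusted by the Benjamini-Hochberg method over all 6220 probe sets tested. No member probe set passed an adjusted p of 0.05 in any of 9 comparisons: each of the 6 hours against naive, all trained against naive, the F test over the 7 groups and the F test over the 6 trained times. Over all genes 0% passed in each of these comparisons except 2 h, where 1 gene did (0.0272% of genes; 0.0161% of all probe sets). The smallest adjusted p over all probe sets was 0.179 in the F test over 7 groups and 0.198 in that over 6 times. The differences that follow are therefore sizes with their errors, and none is a call. Their sizes depended on the model: of 350 differences (50 member probe sets in 7 comparisons), 312 changed sign or moved by over 1.5 times under at least 1 alternative other than leaving out an array or averaging probe sets, and 197 did so without the covariate fits. The covariates were the beta-actin 3′/5′ ratio and the level of Ttr. With at least 1 of them, 302 of the 350 moved that far or changed sign. Covariate fits are given below beside some differences only. A difference printed without one may have moved as far.

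**Figure D1:**
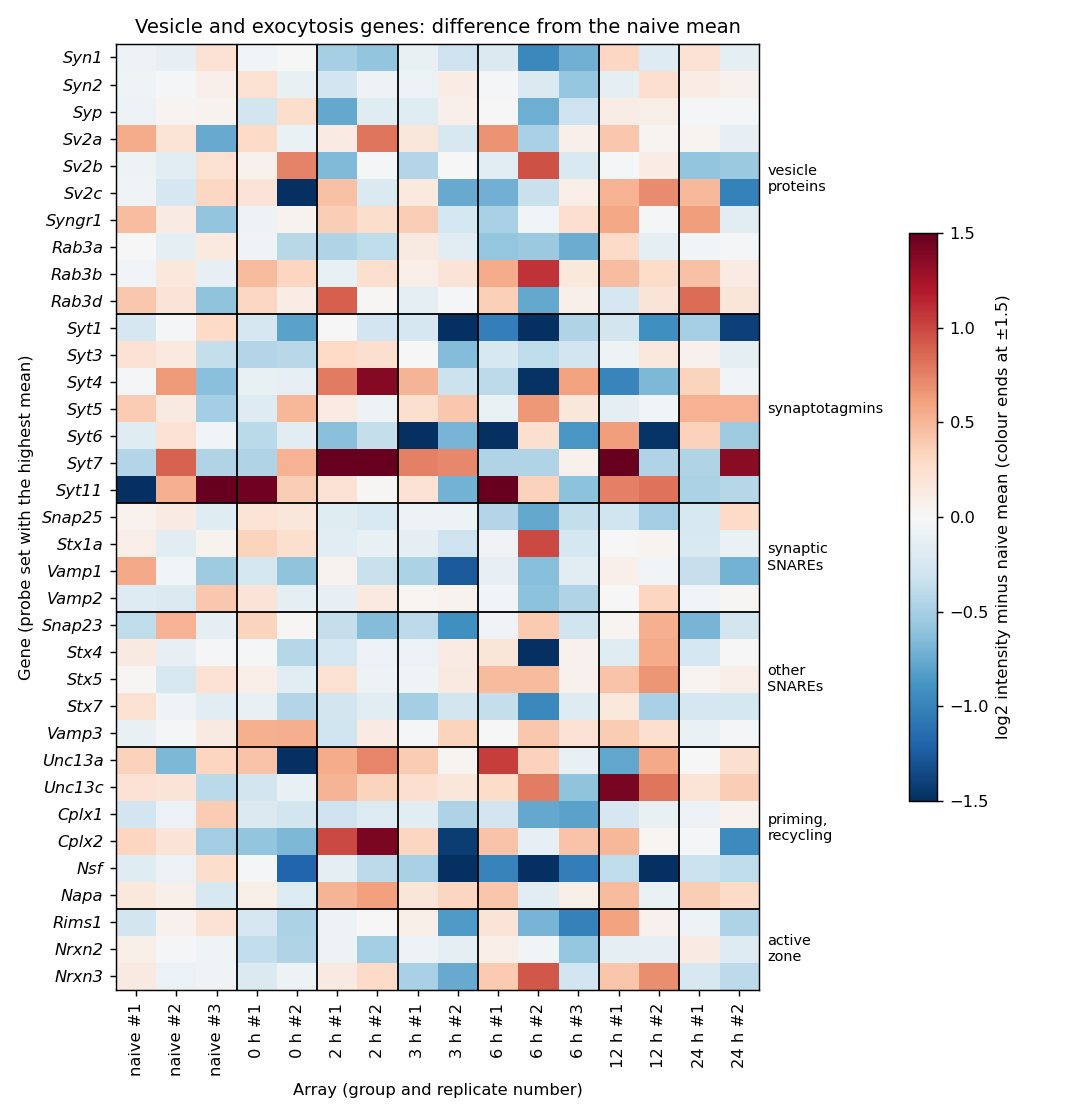
Heat map of the log2 difference from the naive mean for the 35 member genes tested (rows, ordered by role, each by its probe set with the highest mean) on each of the 16 arrays (columns, by group); blue is lower and red is higher than naive. The 6 h columns are mostly blue for Nsf, Syt1, Syn1, Rab3a and Cplx1, and Cplx2 and Syt4 are red in both 2 h columns.

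6 h was the time at which the members as a list lay lowest. The median difference of the 35 genes was -0.27, against -0.0038 over all genes, and 21 of the 35 were below naive (all genes 50.5%). At an unadjusted p under 0.05, 6 members were lower at 6 h (Cplx1, Nsf, Rab3a, Snap25, Syn1 and Syt1), which is 17.1% of them, against 4.79% of all genes; 1 member was higher (Rab3b), against 3.18%. All 6 h arrays lay below every naive array for 6 members (all genes 5.28%) and above for 1, Rab3b, by little on replicate 3 (4.71%). With the 6 h arrays left out in turn, the count of lower members was 9 without replicate 1, 5 without replicate 2 and 8 without replicate 3. The median also moved with single arrays and with the model. It was -0.10 without naive replicate 2, -0.17 without 6 h replicate 2, and -0.06 with the beta-actin ratio as a covariate. The count of lower members was not taken with a covariate. The beta-actin ratio was 1.92, 2.30 and 2.02 on the 6 h arrays, above every naive array. The median deviation of the members from the naive mean was -0.05, -0.33 and -0.27 on the same 3 arrays, and -0.0012, -0.014 and -0.038 on the naive arrays. The summed intensity of the dentate granule neuron markers was 1072 to 1174 at 6 h, that of the oligodendrocyte markers 3925 to 5549, and that of 10 choroid plexus markers 1801 to 4837 (naive 2382 to 5938). The mean of each of the 9 oligodendrocyte markers lay below the naive mean at 6 h. With Ttr, one of the choroid plexus markers, as a covariate the 6 h median was -0.22. The part of the other markers in the 6 h values was not tested.

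**Figure D2:**
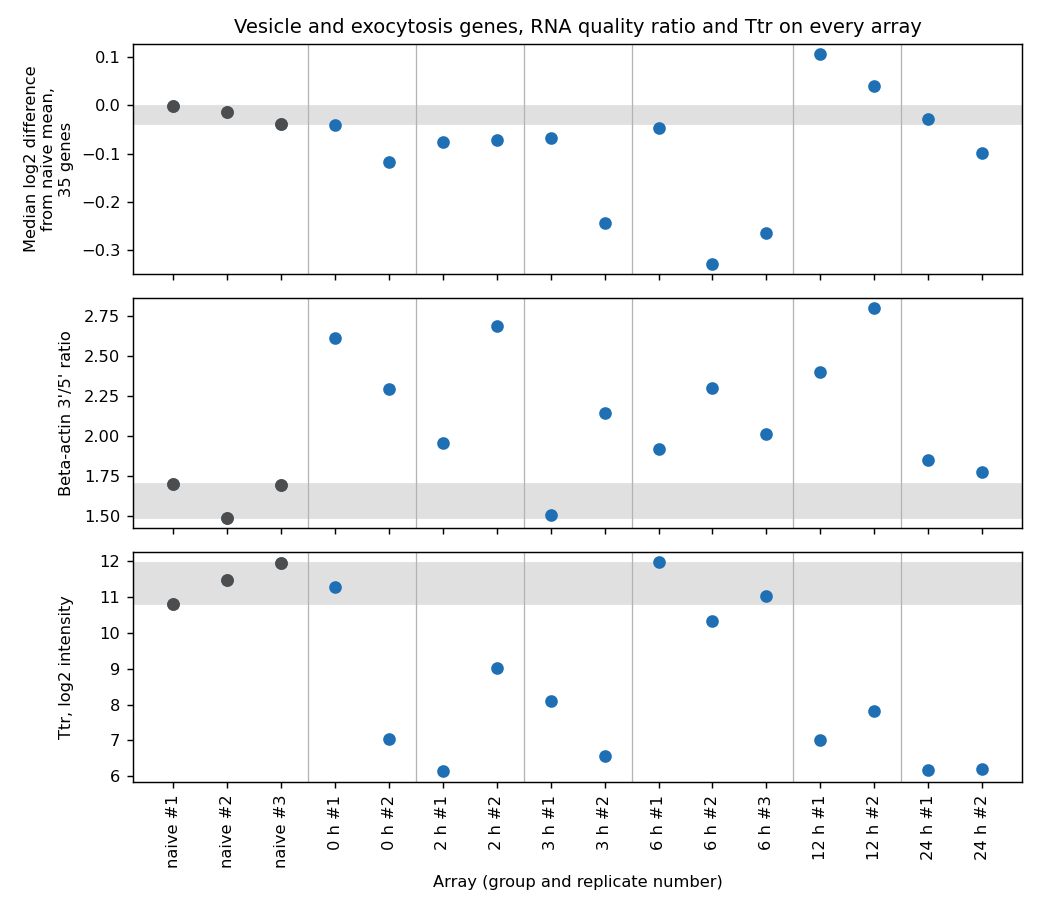
From top to bottom, the median log2 difference of the 35 member genes from the naive mean, the beta-actin 3′/5′ ratio and the log2 intensity of Ttr, for each of the 16 arrays; grey points are naive, blue points trained, and the band is the naive range. The 3 naive arrays lie within 0.04 of 0 for the members, and 6 h replicates 2 and 3 lie at -0.33 and -0.27.

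The other times gave smaller shifts of the list. The member median was -0.06 at 0 h (all genes -0.0095), -0.04 at 2 h (0.01), -0.09 at 3 h (-0.04), 0.07 at 12 h (0.08) and -0.03 at 24 h (0.02), and -0.04 for all trained groups against naive (-0.00084). The pooled SD of an array's member median within a group was 0.0866. Below naive were 22 of 35 members at 0 h (51.5% of all genes), 18 at 2 h (48.4%), 22 at 3 h (55.2%), 11 at 12 h (42.1%), 22 at 24 h (47.7%) and 21 for all trained groups (50.1%). These shares depended on the scaling. Centring each array on its median log2 value moves the median of all genes at 3 h to 0.15. The share of all genes below naive with this centring is in brackets. The share of members went from 62.9% to 48.6% at 0 h (43.9%) and from 51.4% to 62.9% at 2 h (57.2%). It went from 62.9% to 45.7% at 3 h (32.7%), from 31.4% to 54.3% at 12 h (52.7%) and from 62.9% to 40% at 24 h (40.1%). At 6 h the share of members was 60% under both, and under quantile normalization. The share of all genes at 6 h was 50.5% in the main scaling, 40.8% with median centring and 44.9% with quantile normalization. The 6 hours share the same 3 naive arrays, so their shifts are not independent of each other.

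Counts at an unadjusted p under 0.05 were small at these times. For all trained groups, 2 members were lower (Nsf and Syt1; 2.37% of all genes) and 0 higher (1.5%), and 0 members had all 13 trained arrays below every naive array (0.136%) or above (0.0816%). At 0 h, 0 were lower (3.1%) and 1 higher (Vamp3; 1.41%). At 2 h, 1 was lower (Syn1; 3.86%) and 3 were higher (Cplx2, Napa and Syt4; 3.46%). At 3 h, 3 were lower (Nrxn3, Nsf and Vamp1; 3.18%) and 0 higher (0.735%). At 12 h, 1 was lower (Nsf; 4.16%) and 2 higher (Stx5 and Unc13c; 4.11%). At 24 h, 1 was lower (Syt1; 2.86%) and 0 higher (1.12%). With each array left out in turn these counts ran from 0 to 5. At 2 h both were 0 without naive replicate 3, and at 3 h the lower count was 1 without any single naive array or without 3 h replicate 2, and 5 without 3 h replicate 1. Leaving out naive replicate 2 brought the lower count for all trained groups to 0, and leaving out naive replicate 3 or replicate 2 of 0 h, 2 h, 3 h, 12 h or 24 h brought it to 1. The F tests singled out the same 6 members at an unadjusted p under 0.05, whether the naive group was among the groups compared or not: Cplx2, Nrxn3, Rab3a, Snap25, Syn1 and Syt4, which is 17.1% against 9.01% and 10% of all genes. Without 2 h replicate 2 either count was 3.

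Members whose arrays at a time did not overlap the naive arrays were, below and above, 4 and 4 at 0 h (all genes 11.5% and 10.3%), 8 and 7 at 2 h (11.2% and 14.5%), 6 and 1 at 3 h (11.4% and 7.54%), 5 and 7 at 12 h (9.58% and 16.5%) and 5 and 2 at 24 h (10.2% and 9.69%). Syt1, Syt6, Stx7, Cplx1, Nsf and Nrxn2 lay below naive at all 6 hours (6 of 35, against 7.92% of all genes). Rab3b lay above at all 6 (1 of 35, against 8.44%), but its second probe set lay below at 2 h.

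**Figure D3:**
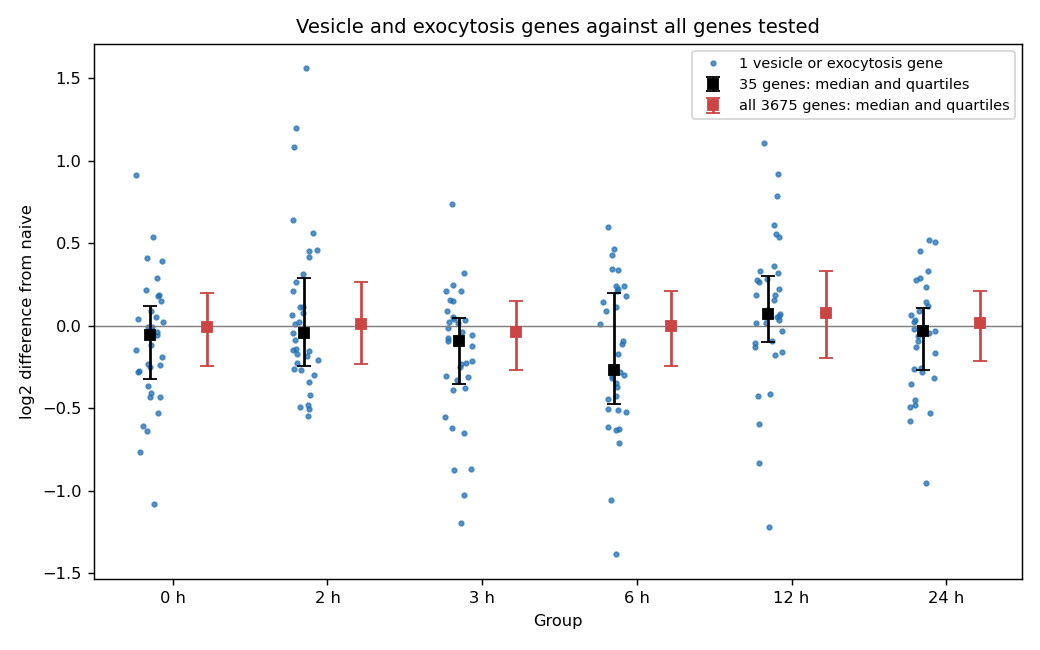
Distribution of the log2 difference from naive at each time for the 35 member genes (blue points; black, median and quartiles) against all 3675 genes tested (red, median and quartiles). The member median lies at -0.27 at 6 h, where the median of all genes is near 0.

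Among the proteins of the vesicle membrane and its surface, 10 of 11 genes were tested, and the median difference at 6 h was -0.19 with 7 of 10 below naive (-0.15 with quantile normalization, -0.11 with median centring). The medians by role, here and below, were not taken with the beta-actin ratio or Ttr as a covariate. Syn1 encodes synapsin I, a phosphoprotein that ties vesicles to the cytoskeleton in the reserve pool. It read 8.89, 8.85 and 9.20 on the naive arrays, 8.94 and 8.98 at 0 h, 8.48 and 8.38 at 2 h, 8.86 and 8.66 at 3 h, 8.76, 8.01 and 8.26 at 6 h, 9.29 and 8.79 at 12 h and 9.19 and 8.84 at 24 h. Both 2 h arrays and all 3 of the 6 h arrays lay below every naive array, and the 12 h and 24 h arrays overlapped naive. Its difference was -0.55 (SE 0.24, limma adjusted p = 0.616) at 2 h, or 1.46-fold lower, and -0.63 (SE 0.21, limma adjusted p = 0.416) at 6 h, or 1.55-fold lower; the 2 h value was -0.27 with the beta-actin ratio as a covariate. Its promoter, printed above, is one of the 3 member windows with a full cyclic AMP response element.

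Rab3a encodes the small GTPase of the vesicle surface that cycles with release. It read 9.23, 9.08 and 9.37 on the naive arrays, 9.17 and 8.81 at 0 h, 8.78 and 8.84 at 2 h, 9.36 and 9.07 at 3 h, 8.65, 8.66 and 8.49 at 6 h, 9.51 and 9.08 at 12 h and 9.19 and 9.21 at 24 h. The 6 h arrays lay between 8.49 and 8.66, all below the lowest naive value of 9.08, and both 2 h arrays were below it too. The 6 h difference was -0.63 (SE 0.18, limma adjusted p = 0.373), or 1.54-fold lower, and the 2 h difference -0.42 (SE 0.20, limma adjusted p = 0.648) (-0.19 with Ttr as a covariate). Rab3b, a paralogue found in fewer neurons, read 7.71, 7.92 and 7.64 on the naive arrays, 8.22 and 8.07 at 0 h, 7.65 and 7.99 at 2 h, 7.86 and 7.95 at 3 h, 8.31, 8.84 and 7.92 at 6 h, 8.21 and 8.03 at 12 h and 8.19 and 7.88 at 24 h. Opposite in sign to Rab3a, its 6 h difference was 0.60 (SE 0.22, limma adjusted p = 0.428). All its arrays at 0 h, 6 h and 12 h lay above every naive array, 6 h replicate 3 by little (7.916 against 7.915). Its second probe set differed by 0.12 at 6 h and by -0.31 at 2 h, the 1 time it lay below naive. Rab3d, better known from secretory cells outside the brain, ranged from -0.11 at 6 h to 0.51 at 24 h.

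Sv2b, a transporter-like glycoprotein of the vesicle membrane, was measured by a pair of probe sets that disagreed. The probe set with the highest mean (rc_AI639484_at) read 10.41, 10.33 and 10.71 on the naive arrays, 10.55 and 11.23 at 0 h, 9.82 and 10.46 at 2 h, 10.05 and 10.47 at 3 h, 10.31, 11.44 and 10.25 at 6 h, 10.47 and 10.60 at 12 h and 9.89 and 9.92 at 24 h. Its 6 h difference was 0.18 (SE 0.29, limma adjusted p = 0.896). The other (L10362_at) read 7.33, 7.55 and 7.80 on the naive arrays, 7.34 and 7.23 at 0 h, 7.18 and 7.36 at 2 h, 7.23 and 6.18 at 3 h, 6.30, 5.74 and 6.64 at 6 h, 6.69 and 6.36 at 12 h and 6.54 and 6.72 at 24 h. On it 13 of 13 trained arrays lay below the naive mean, and all arrays of 3 h, 6 h, 12 h and 24 h lay below every naive array. Its differences were -1.33 (SE 0.27, limma adjusted p = 0.234) at 6 h, or 2.52-fold lower, -1.03 (SE 0.30, limma adjusted p = 0.303) at 12 h and -0.79 (SE 0.21, limma adjusted p = 0.622) for all trained groups. With the beta-actin ratio as a covariate these were -0.97, -0.33 and -0.37, and with both Sv2b probe sets averaged -0.58, -0.49 and -0.44. The gap between both probe sets at 6 h was 1.52, the widest within any member gene. Of the 50 member probe sets over 9 comparisons and every alternative run, L10362_at alone passed 0.05, in 1 setting: without 6 h replicate 3 its 6 h difference was -1.54 with a limma adjusted p of 0.0263. The deposited data do not tell which probe set follows the Sv2b transcript.

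Syn2 encodes synapsin II, and its 3 probe sets also diverged. The one with the highest mean differed by 0.05 at 0 h and -0.27 at 6 h. The second (rc_AI145494_at) read 9.12, 8.66 and 8.53 on the naive arrays, 7.97 and 7.68 at 0 h, 8.94 and 9.15 at 2 h, 8.22 and 8.04 at 3 h, 8.45, 9.10 and 8.58 at 6 h, 8.85 and 7.81 at 12 h and 8.11 and 8.32 at 24 h. All arrays at 0 h, 3 h and 24 h were below every naive array, with a 0 h difference of -0.94 (SE 0.29, limma adjusted p = 0.793), whereas at 6 h it was -0.06; averaged over the probe sets the 0 h difference was -0.51. The third differed by -0.64 at 0 h and -0.71 at 6 h. Syp, which encodes synaptophysin and is the standard marker of synaptic vesicles, read 9.95, 10.08 and 10.10 on the naive arrays, 9.76 and 10.31 at 0 h, 9.27 and 9.86 at 2 h, 9.86 and 10.11 at 3 h, 10.05, 9.31 and 9.73 at 6 h, 10.15 and 10.13 at 12 h and 10.01 and 10.01 at 24 h. Both 2 h arrays were below every naive array, at -0.48 (SE 0.24, limma adjusted p = 0.655), and both 12 h arrays above, at 0.09. Of the other vesicle genes, Sv2a differed by -0.04 to 0.46 over the 6 times, and Sv2c by -1.08 at 0 h (SE 0.59) to 0.61 at 12 h. Syngr1, synaptogyrin 1, read 6.16, 5.83 and 5.11 on the naive arrays, 5.63 and 5.76 at 0 h, 6.07 and 5.96 at 2 h, 6.07 and 5.44 at 3 h, 5.21, 5.66 and 5.95 at 6 h, 6.28 and 5.68 at 12 h and 6.33 and 5.54 at 24 h. It overlapped naive at every time and its tested probe sets differed in opposite directions for all trained groups, 0.13 and -0.25. The second of these (U39549_g_at, SE 0.41) lay near the lowest level, with a naive mean of 3.39.

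**Figure D4:**
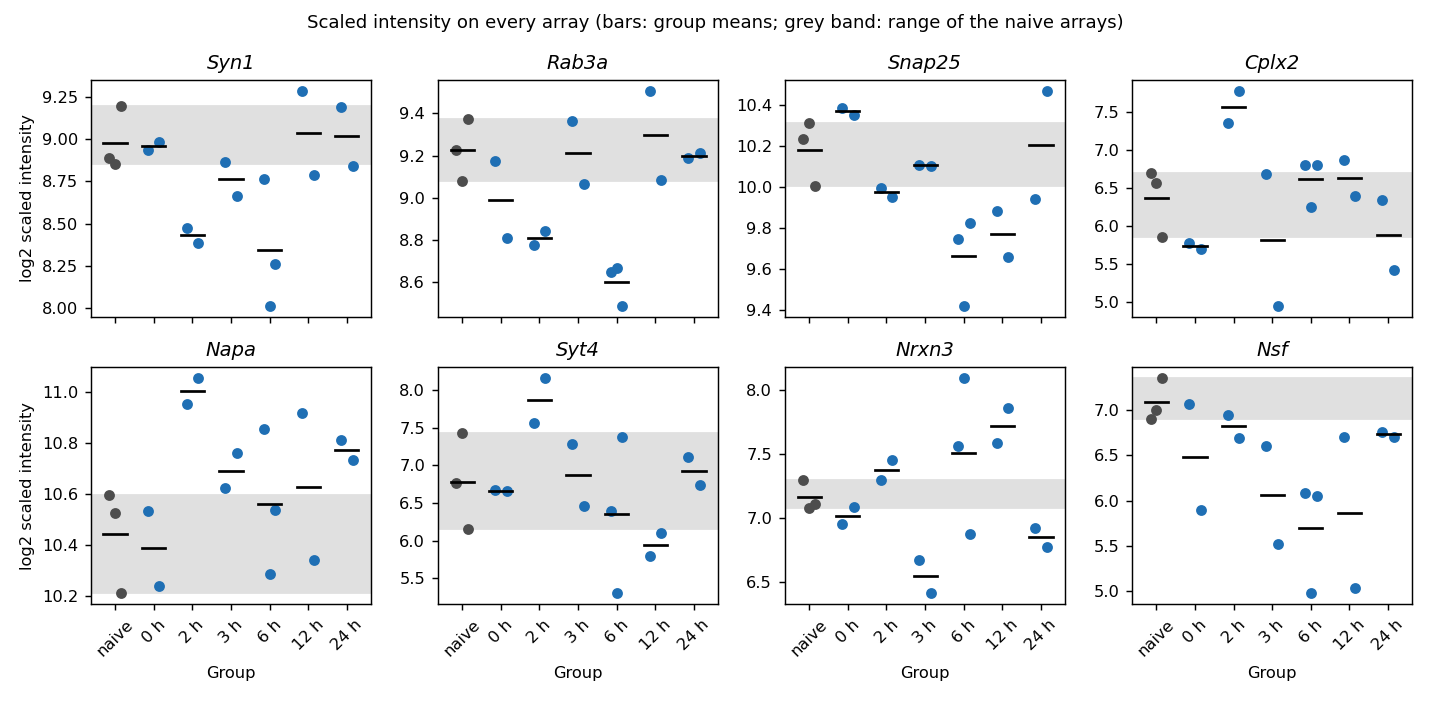
Log2 scaled intensity of 8 members (1 panel each, by the probe set with the highest mean) on each of the 16 arrays, by group; bars are group means and the grey band is the naive range. Syn1 and Rab3a are lowest at 6 h and 2 h, Cplx2 and Napa highest at 2 h, and the 3 naive arrays of Nsf (6.91 to 7.36) lie above 11 of the 13 trained arrays.

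Synaptotagmins bind calcium or, in some isoforms, phospholipids without calcium; 7 of the 8 listed were tested, with a median difference at 6 h of -0.30 and 5 of 7 below naive (-0.27 with quantile normalization, -0.23 with median centring). Syt1, the fast calcium sensor of forebrain synapses, read 5.05, 5.27 and 5.59 on the naive arrays, 5.05 and 4.50 at 0 h, 5.29 and 5.02 at 2 h, 5.05 and 3.80 at 3 h, 4.28, 3.60 and 4.86 at 6 h, 5.02 and 4.39 at 12 h and 4.81 and 3.90 at 24 h. 13 of 13 trained arrays lay below the naive mean, and all arrays at 0 h, 6 h, 12 h and 24 h were below every naive array, those at 0 h and 12 h by little on replicate 1. The difference was -1.06 (SE 0.40, limma adjusted p = 0.434) at 6 h, -0.95 (SE 0.45, limma adjusted p = 1) at 24 h and -0.69 (SE 0.32, limma adjusted p = 0.931) for all trained groups. It was -0.55 at 6 h and -0.11 for all trained groups with the beta-actin ratio as a covariate, and -0.25 at 24 h with Ttr as a covariate. The level of this probe set is low, at 5.30 ± 0.27 (SD, n = 3) in naive arrays.

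Syt4, an isoform found on dense-core and postsynaptic vesicles and known as an activity-induced gene, read 6.77, 7.43 and 6.15 on the naive arrays, 6.67 and 6.66 at 0 h, 7.57 and 8.16 at 2 h, 7.29 and 6.46 at 3 h, 6.39, 5.30 and 7.38 at 6 h, 5.80 and 6.10 at 12 h and 7.12 and 6.74 at 24 h. Both 2 h arrays were above every naive array and both 12 h arrays below. The 2 h difference was 1.08 (SE 0.47, limma adjusted p = 0.616), or 2.12-fold higher, and the 12 h difference -0.83 (SE 0.47, limma adjusted p = 0.56) (-0.13 with the beta-actin ratio as a covariate). Its second probe set gave 0.89 and -0.70 at the same times. Syt7, a slow sensor of asynchronous release, read 2.34, 3.67 and 2.34 on the naive arrays, 2.34 and 3.31 at 0 h, 4.41 and 4.27 at 2 h, 3.53 and 3.51 at 3 h, 2.34, 2.34 and 2.84 at 6 h, 5.07 and 2.34 at 12 h and 2.34 and 4.14 at 24 h. It lay at the lowest level, 2.337, on 6 of 16 arrays, and it passed the filter on the 2 h arrays and on 1 array each at 12 h and 24 h. With naive replicate 3 at that level and naive replicate 1 just above it (2.341), no difference is given for Syt7. Syt6 read 3.85, 4.25 and 3.997 on the naive arrays, 3.63 and 3.87 at 0 h, 3.41 and 3.68 at 2 h, 2.34 and 3.34 at 3 h, 2.53, 4.28 and 3.16 at 6 h, 4.66 and 2.56 at 12 h and 4.38 and 3.50 at 24 h, with -1.20 (SE 0.62) at 3 h, where both arrays were below every naive array (-1.94 with Ttr as a covariate). Syt6 is low too, and its 3 h replicate 1 lay at the lowest level, so the size at 3 h depends on where that level was set. Syt3 lay below every naive array at 0 h (-0.43) and above at 2 h (0.27). Syt5 ranged from -0.09 to 0.52, and Syt11 from -0.45 to 0.91 with an SD of 1.91 between its naive arrays.

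Of the SNARE proteins of regulated release at the synapse, all 4 were tested, with a median difference at 6 h of -0.34 and 3 of 4 below naive (-0.33 with quantile normalization, -0.25 with median centring). Snap25, the plasma membrane SNARE of fast release, read 10.23, 10.31 and 10.003 on the naive arrays, 10.38 and 10.35 at 0 h, 9.99 and 9.95 at 2 h, 10.11 and 10.10 at 3 h, 9.74, 9.42 and 9.82 at 6 h, 9.88 and 9.66 at 12 h and 9.94 and 10.47 at 24 h. All 2 h, 6 h and 12 h arrays lay below every naive array, those at 2 h by little, while both 0 h arrays lay above. The difference was -0.52 (SE 0.18, limma adjusted p = 0.416) at 6 h, or 1.43-fold lower, and -0.41 (SE 0.20, limma adjusted p = 0.504) at 12 h (-0.16 with the beta-actin ratio as a covariate). Its other probe sets differed by -0.10, -0.11 and -0.43 at 0 h, and by 0.26, 0.22 and -0.57 at 2 h. At 6 h its 4 probe sets all lay below naive, by -0.87, -0.91 and -1.16 on the other 3. The lowest of these (U56261_s_at) read 4.90, 4.97 and 5.50 on the naive arrays, 5.0 and 4.38 at 0 h, 4.75 and 4.35 at 2 h, 4.35 and 4.49 at 3 h, 3.86, 4.18 and 3.85 at 6 h, 4.76 and 4.32 at 12 h and 4.29 and 4.66 at 24 h. On it 13 of 13 trained arrays were below the naive mean, those from 2 h to 24 h below every naive array, and the 6 h difference was -1.16 (SE 0.31, limma adjusted p = 0.373).

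Vamp1 encodes synaptobrevin 1, and its probe sets lay below naive together at 5 of 6 times. The one with the highest mean read 7.69, 7.08 and 6.59 on the naive arrays, 6.86 and 6.52 at 0 h, 7.18 and 6.79 at 2 h, 6.65 and 5.86 at 3 h, 7.004, 6.48 and 6.96 at 6 h, 7.20 and 7.08 at 12 h and 6.78 and 6.41 at 24 h. The 3 h arrays were 6.65 and 5.86 against a lowest naive value of 6.59, so the groups overlapped, and the difference was -0.87 (SE 0.32, limma adjusted p = 0.998), or 1.82-fold lower. The other (M24104_g_at) read 7.59, 7.08 and 7.03 on the naive arrays, 6.50 and 6.35 at 0 h, 7.01 and 6.49 at 2 h, 6.81 and 5.95 at 3 h, 6.28, 5.82 and 6.45 at 6 h, 6.999 and 6.67 at 12 h and 6.23 and 6.15 at 24 h. All 13 trained arrays lay below every naive array, the closest being 7.01 at 2 h against the lowest naive value of 7.03. It was the only 1 of the 50 member probe sets tested for which this held, against 0.193% of all probe sets. Its difference was -1.05 (SE 0.26, limma adjusted p = 0.373) at 6 h, -1.05 (SE 0.29, limma adjusted p = 0.492) at 24 h and -0.78 (SE 0.21, limma adjusted p = 0.604) for all trained groups. With the beta-actin ratio as a covariate it was -0.63 at 6 h and -0.29 for all trained groups. Vamp2, the main synaptobrevin of forebrain terminals, differed by -0.37 (SE 0.21, limma adjusted p = 0.586) at 6 h and by at most 0.15 in size at every other time. Its second probe set gave -0.63 at 6 h, -0.40 at 3 h and -0.35 at 24 h, and -0.10 to 0.09 at the other times. Stx1a, the neuronal syntaxin, differed by -0.23 to 0.29 over the 6 times, and at 6 h its probe sets differed in opposite directions, 0.23 and -0.35.

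**Figure D5:**
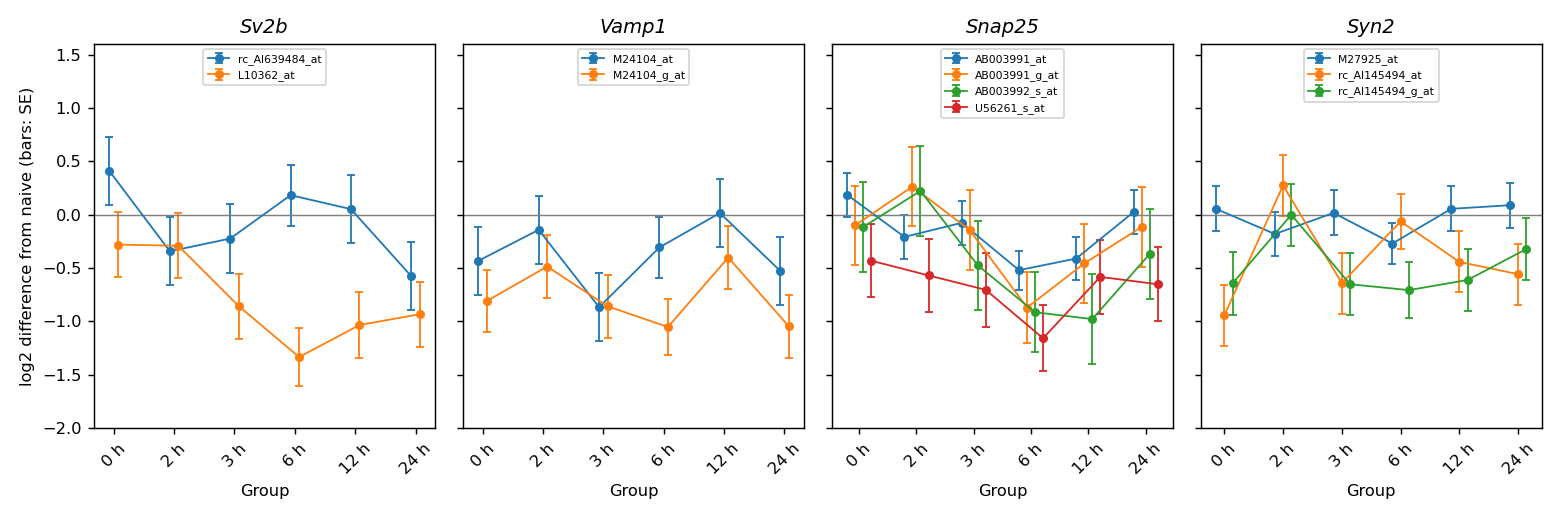
Log2 difference from naive at each of the 6 times for the probe sets of Sv2b, Vamp1, Snap25 and Syn2 (1 panel per gene, 1 line per probe set, error bars are the standard error of the fit). The pair of Sv2b lines is 1.52 apart at 6 h, and all 4 Snap25 lines lie below 0 there.

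The SNARE proteins of general membrane traffic, which act in the Golgi, endosomes and at the surface of most cells, showed no common shift at 6 h: the median of 5 genes was 0.01, with 2 below naive. Vamp3, cellubrevin of recycling endosomes, read 7.34, 7.44 and 7.58 on the naive arrays, 7.98 and 7.99 at 0 h, 7.15 and 7.58 at 2 h, 7.43 and 7.79 at 3 h, 7.46, 7.86 and 7.67 at 6 h, 7.84 and 7.71 at 12 h and 7.36 and 7.42 at 24 h. Both 0 h arrays and both 12 h arrays lay above every naive array, with a 0 h difference of 0.54 (SE 0.21, limma adjusted p = 0.909), or 1.45-fold higher (0.14 with the beta-actin ratio as a covariate). Stx5, the syntaxin of the Golgi, read 6.85, 6.60 and 7.05 on the naive arrays, 6.93 and 6.66 at 0 h, 7.06 and 6.76 at 2 h, 6.76 and 6.97 at 3 h, 7.30, 7.31 and 6.90 at 6 h, 7.26 and 7.49 at 12 h and 6.87 and 6.93 at 24 h. Both 12 h arrays were above every naive array, with a difference of 0.54 (SE 0.23, limma adjusted p = 0.454) (0.35 with the beta-actin ratio as a covariate). Its second tested probe set gave 0.33 at 12 h but -0.88 at 2 h, where the first gave 0.08. Stx7, an endosomal syntaxin, lay below naive at all 6 hours, from -0.50 at 6 h to -0.16 at 12 h. Stx4 differed by -0.45 to 0.19 and Snap23, the ubiquitous relative of Snap25, by -0.65 to 0.29.

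Priming, clamping and recycling factors did not share 1 direction, and the group's median was -0.43 at 0 h with 6 of 6 below naive (5 of 6 with median centring), 0.49 at 2 h with 2 of 6 below, and 0.13 at 6 h. Nsf, the ATPase that takes SNARE complexes apart, read 6.91, 7.003 and 7.36 on the naive arrays, 7.07 and 5.90 at 0 h, 6.94 and 6.70 at 2 h, 6.60 and 5.52 at 3 h, 6.09, 4.97 and 6.05 at 6 h, 6.70 and 5.03 at 12 h and 6.76 and 6.71 at 24 h. 13 of 13 trained arrays lay below the naive mean, and all arrays at 3 h, 6 h, 12 h and 24 h lay below every naive array. The difference was -1.39 (SE 0.42, limma adjusted p = 0.388) at 6 h, or 2.61-fold lower, -1.22 (SE 0.47, limma adjusted p = 0.426) at 12 h and -0.81 (SE 0.33, limma adjusted p = 0.922) for all trained groups. With the beta-actin ratio as a covariate it was -0.81 at 6 h and -0.12 at 12 h, and with Ttr as a covariate -0.14 for all trained groups. The 12 h value rested on replicate 2: it was -2.06 without replicate 1 and -0.38 without replicate 2. Its second probe set read 5.89, 5.67 and 6.48 on the naive arrays, 6.37 and 3.90 at 0 h, 5.16 and 5.51 at 2 h, 5.02 and 4.11 at 3 h, 5.21, 3.96 and 5.10 at 6 h, 5.93 and 4.34 at 12 h and 5.31 and 5.16 at 24 h. It had 12 of 13 trained arrays below the naive mean and differed by -1.26 (SE 0.54, limma adjusted p = 0.491) at 6 h. Nsf was the only 1 of the 12 members with several tested probe sets whose probe sets lay on the same side of naive at all 6 hours.

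Napa encodes alpha-SNAP, which brings NSF to the SNARE complex. It read 10.60, 10.52 and 10.21 on the naive arrays, 10.53 and 10.24 at 0 h, 10.95 and 11.06 at 2 h, 10.62 and 10.76 at 3 h, 10.86, 10.29 and 10.54 at 6 h, 10.92 and 10.34 at 12 h and 10.81 and 10.73 at 24 h. All arrays at 2 h, 3 h and 24 h lay above every naive array, with a 2 h difference of 0.56 (SE 0.22, limma adjusted p = 0.589), or 1.48-fold higher; its second probe set gave 0.51. At 6 h its probe sets lay on opposite sides of naive, at 0.12 and -0.27.

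Cplx2, the complexin of excitatory neurons, had the smallest F test p of the members taken by their highest probe set. It read 6.69, 6.57 and 5.85 on the naive arrays, 5.78 and 5.69 at 0 h, 7.36 and 7.78 at 2 h, 6.69 and 4.95 at 3 h, 6.80, 6.25 and 6.80 at 6 h, 6.87 and 6.40 at 12 h and 6.35 and 5.42 at 24 h. The 2 h arrays were the highest of the 16 and the 0 h arrays were both below every naive array. The 2 h difference was 1.20 (SE 0.42, limma adjusted p = 0.501), or 2.29-fold higher (1.91 with the beta-actin ratio as a covariate), and the F test gave a limma adjusted p of 0.361 over 7 groups and 0.289 over 6 times. Cplx1, the complexin common in inhibitory neurons, differed from naive in the opposite direction at 6 h, where Cplx2 was at 0.24. It read 7.48, 7.69 and 8.15 on the naive arrays, 7.56 and 7.50 at 0 h, 7.46 and 7.57 at 2 h, 7.62 and 7.31 at 3 h, 7.50, 7.01 and 6.97 at 6 h, 7.53 and 7.67 at 12 h and 7.69 and 7.83 at 24 h. At 6 h replicate 1 lay just above the lowest naive value and replicates 2 and 3 lay below it, and the 6 h difference was -0.61 (SE 0.21, limma adjusted p = 0.416), or 1.53-fold lower. At 2 h Cplx1 differed by -0.26 where Cplx2 differed by 1.20. Unc13c, a Munc13 priming factor best known from cerebellum, read 3.91, 3.89 and 3.30 on the naive arrays, 3.42 and 3.59 at 0 h, 4.20 and 4.03 at 2 h, 3.95 and 3.86 at 3 h, 3.97, 4.46 and 3.09 at 6 h, 5.12 and 4.50 at 12 h and 3.91 and 4.07 at 24 h. Both 12 h arrays were the highest of the 16, with a difference of 1.11 (SE 0.43, limma adjusted p = 0.427), at a low level. Unc13a, the main Munc13 of forebrain synapses, ranged from -0.76 at 0 h to 0.64 at 2 h, each with an SE of 0.59.

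At the active zone, 3 of 5 genes were tested. Nrxn3 encodes neurexin 3, which binds partners across the cleft. It read 7.30, 7.08 and 7.11 on the naive arrays, 6.95 and 7.09 at 0 h, 7.30 and 7.46 at 2 h, 6.68 and 6.41 at 3 h, 7.56, 8.09 and 6.88 at 6 h, 7.58 and 7.86 at 12 h and 6.92 and 6.78 at 24 h. Both arrays at 3 h and at 24 h lay below every naive array, and both at 12 h above. The difference was -0.62 (SE 0.28, limma adjusted p = 0.998) at 3 h and 0.55 (SE 0.28, limma adjusted p = 0.507) at 12 h (0.33 with the beta-actin ratio as a covariate), and the F test over the 6 times gave a limma adjusted p of 0.309. Nrxn2 lay below naive at all 6 hours, from -0.41 at 0 h to -0.03 at 24 h. Rims1, the scaffold that links vesicles to calcium channels, differed by -0.51 at 6 h (-0.15 with the beta-actin ratio as a covariate) and 0.33 at 12 h. Bsn, bassoon, lay at the lowest level on 7 of 16 arrays and was not tested.

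The other 4 untested genes were low too. Stx3 was at the lowest level on 14 of 16 arrays, Unc13b on 8, and Rph3a and Syt2 on 7 each, so no difference is given for them. Of the 12 genes with 2 or more tested probe sets, 10 had all of them on the same side of naive for all trained groups, and Sv2b was the 1 gene with a gap over 1 at any time.

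A wider list of 105 exocytosis genes, with V-ATPase subunits, transmitter transporters, exocyst subunits and further SNARE proteins among them, had 62 genes with a probe set and 48 tested. None passed an adjusted p of 0.05 in any comparison. For all trained groups 26 of the 48 lay below naive (all genes 50.1%); at an unadjusted p under 0.05, 1 was lower (all genes 2.37%) and 1 higher (1.5%). The lower was Exoc8, a subunit of the exocyst that tethers vesicles, at -1.15 (SE 0.53, limma adjusted p = 0.931), and the higher was Lin7a, a scaffold of the presynaptic CASK complex, at 0.41 (SE 0.17, limma adjusted p = 0.922). At 6 h, 4 were lower at that threshold (Cacna1b, Cadps, Exoc5 and Scamp1; all genes 4.79%) and 3 higher (Exoc3, Lin7a and Stx12; 3.18%). Cacna1b encodes the pore of the N-type calcium channel and Cadps the priming factor CAPS of dense-core vesicles.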

How the data were processed

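The study measured total RNA of rat dentate gyrus on 16 arrays in 7 groups, assigned from the labels. The values deposited are linear intensities, with 1 per probe set and array; what software, background correction and scaling the authors used is not given in the sources used here. Of 8799 probe sets, 59 controls were left out. Arrays were brought to the same 2% trimmed mean, the pooled 20th percentile (5.05) served as the lowest value, and logs to base 2 followed. Probe sets above the pooled 40th percentile (16.9) on 2 or more arrays were kept, 6220 in all. Of the 8740 probe sets, 7006 carried 1 gene symbol in the platform annotation, 308 several and 1426 none. By gene identifier, 6994 annotation rows were matched to RefSeq, and matched rows with 1 symbol took the RefSeq symbol. How many symbols this changed was not counted. No member probe set carried several symbols.

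The tests are those of limma (version 3.58.1, R 4.3.3; eBayes with a trend) in 1 model of 7 groups with 9 residual degrees of freedom, and Benjamini-Hochberg adjusted p-values were held to 0.05. The fit was tested on simulated arrays. The members and gene lists were chosen with earlier results of these data known. Values in every array are given for the members with the smallest p in each comparison, those with the largest differences, and those whose probe sets disagree; others, such as Rab3a, Rab3b, Syp, Syt4 and Cplx1, were added after their values were seen. Alternatives varied the scaling, lowest level, filter, variance model, array weights, choice of probe set, covariates and replicate block, restricted the fit to the groups being compared, or left out 1 array. The number of arrays limits the precision.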

Additional observations from a re-analysis of the deposited data

Results flagged for a closer look

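6 of the 35 genes tested (17.1%, against 10.3% of all genes) had all arrays of 1 time above every naive array and all arrays of another below. For these pairs the difference between the times was not tested by itself; the F test over the 6 trained times is given instead. Syp differed from naive by -0.48 at 2 h and 0.094 at 12 h (limma adjusted p = 0.622). Syt3 differed by -0.43 at 0 h and 0.27 at 2 h (limma adjusted p = 0.545). Syt4 differed by 1.08 at 2 h and -0.83 at 12 h (limma adjusted p = 0.411). Snap25 differed by 0.19 at 0 h, -0.21 at 2 h, -0.52 at 6 h and -0.41 at 12 h (limma adjusted p = 0.411). Its other probe sets lay below naive at 0 h, by -0.10, -0.11 and -0.43, and differed by 0.26, 0.22 and -0.57 at 2 h. Cplx2 differed by -0.64 at 0 h and 1.20 at 2 h (limma adjusted p = 0.289). Nrxn3 differed by -0.62 at 3 h, 0.55 at 12 h and -0.32 at 24 h (limma adjusted p = 0.309). All are log2 differences over 2 or 3 arrays a group, and their causes were not tested.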

How the results depend on the processing

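The count of member genes past an adjusted p of 0.05, on the probe set with the highest mean of each gene, was 0 in every comparison under each of the alternatives run, and with each array left out. The median difference of the list moved in some settings, and single differences moved more, as given beside some of the genes. With each array centred on its median, the list's median was 0.092 at 3 h and -0.027 at 12 h. With array weights it was -0.15 at 0 h. With the probe sets of a gene averaged it was -0.13 for all trained groups, -0.17 at 0 h and -0.22 at 3 h. With the beta-actin ratio as a covariate it was 0.052 at 0 h, -0.056 at 6 h and 0.24 at 12 h, while Ttr as the covariate gave 0.12 at 2 h, 0.18 at 12 h and 0.11 at 24 h. The cause was not tested. With each array left out it ran from -0.17 to -0.041 at 0 h, from -0.24 to -0.067 at 3 h and from -0.31 to -0.10 at 6 h. In the other comparisons it moved by less than 0.0866, the SD between arrays, running from -0.09 to -0.0073 at 2 h, from 0.04 to 0.11 at 12 h, from -0.10 to -0.03 at 24 h, and from -0.11 to -0.0080 for all trained groups. Outside that count, of all member probe sets tested the second of Sv2b (L10362_at) passed, only without 6 h replicate 3, at -1.54. Deviations of same-numbered arrays from their group means correlated at -0.201 to 0.187 over 43 pairs, not above 0.1 in every pair, so the arrays were taken to share only a number; with the replicate block the count of members past the threshold was 0 in each comparison. Signal over background limits the low genes, such as Syt7, on 6 arrays at the lowest level.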
